A study of Homo sapiens with 8 samples.

Results

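The genes described here are the nuclear genes of the respiratory chain, the subunits of complexes I to V that are encoded in the nucleus. They were taken by symbol from the genes of the expression table (the NDUFA, NDUFB, NDUFC, NDUFS, NDUFV, SDH, UQCR, CYC1, COX4 to COX8 and ATP5 symbols), without pseudogenes. The rule found 93 of 60664 genes, of which 88 are subunit genes and 5 are antisense, divergent or readthrough transcripts. There were 83 members, all of them subunit genes, that reached 1 FPKM in 2 or more of 8 libraries, and these were tested. FPKM is the number of reads per kilobase of a gene's exons and scaled to the library total. RNA was sequenced from THP-1 cells, a human acute monocytic leukemia line, and from DAC-resistant THP-1 cells. DAC (decitabine) is a cytidine analogue that is built into DNA and lowers its methylation. Cells of each line were given DMSO or 1 µM DAC for 6 days, with 2 biological replicates in each of 4 groups, and the labels give the genotype of both lines as WT. The resistant line was selected from parental cells by repeated pulses of DAC over 3 months and then kept without the drug for at least 2 weeks, and whether it is 1 clone is not given in the sources used here.

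The respiratory chain passes electrons from NADH (complex I) and succinate (complex II, which is also an enzyme of the citric acid cycle) through ubiquinone to complex III and by cytochrome c to oxygen at complex IV. Complexes I, III and IV pump protons across the inner mitochondrial membrane, and complex V, the ATP synthase, uses the gradient to make ATP. All subunits of complex II come from nuclear genes, while the other complexes combine nuclear subunits with a few encoded in mitochondrial DNA, and several subunits of complex IV have isoforms that are made mainly in muscle or testis.

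The 8 libraries held 28670681 to 33370402 recovered reads on genes, with the lowest totals in parental cells with DAC. All 12 monocytic leukemia markers were detected in every library. Their summed level was 291 and 295 FPKM in parental cells in DMSO, 421 and 430 with DAC, 233 and 218 in DAC-resistant cells in DMSO, and 235 and 227 with DAC. Markers of other blood cells summed to 8.82 and 9.64 FPKM in parental cells in DMSO and 19.1 and 21.2 with DAC. In DAC-resistant cells they summed to 3.54 and 3.56 FPKM in DMSO and 3.94 and 2.23 with DAC. PPBP (platelets) was at 0 in all libraries. Markers of epithelial and stromal cells summed to 43.2 and 43.1 FPKM in parental cells in DMSO, 64.4 and 61.7 with DAC, 22.6 and 23.3 in DAC-resistant cells in DMSO, and 19.3 and 18.4 with DAC, most of it from PECAM1, which monocytic cells also express. The cytosolic ribosomal protein genes moved as well. By limma, 78 of 85 (91.76%) were lower after DAC in parental cells, beside 24.1% of all genes tested. Between the lines in DMSO, 61 (71.76%) were lower in DAC-resistant than in parental cells, beside 26.2% of all genes tested. The part of these shifts in the results below was not tested. In bulk RNA, fewer cells of a type and less RNA per cell cannot be told apart.

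The largest changes among the members were in complex IV isoforms that parental cells hardly expressed, so the promoters of COX8C and COX7B2, the testis isoforms of subunits 8 and 7B, are shown beside those of their ubiquitous counterparts COX8A and COX7B. Each window runs from 250 bases before to 50 bases after the transcription start, 5′ to 3′ on the gene's strand, as listed by RefSeq for GRCh38.p14, and capitals mark each CpG, the dinucleotide at which DNA is methylated. COX8C lies on the plus strand (chr14:93346932-93347231), COX8A on the plus strand (chr11:63974370-63974669), COX7B2 on the minus strand (chr4:46909196-46909495) and COX7B on the plus strand (chrX:77899218-77899517).
COX8C: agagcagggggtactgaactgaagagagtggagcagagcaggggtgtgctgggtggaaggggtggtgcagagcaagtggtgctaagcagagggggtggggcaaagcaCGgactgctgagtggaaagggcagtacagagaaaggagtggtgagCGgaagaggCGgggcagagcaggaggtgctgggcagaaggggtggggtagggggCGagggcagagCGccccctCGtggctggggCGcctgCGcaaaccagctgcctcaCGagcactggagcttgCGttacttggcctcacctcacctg
COX8A: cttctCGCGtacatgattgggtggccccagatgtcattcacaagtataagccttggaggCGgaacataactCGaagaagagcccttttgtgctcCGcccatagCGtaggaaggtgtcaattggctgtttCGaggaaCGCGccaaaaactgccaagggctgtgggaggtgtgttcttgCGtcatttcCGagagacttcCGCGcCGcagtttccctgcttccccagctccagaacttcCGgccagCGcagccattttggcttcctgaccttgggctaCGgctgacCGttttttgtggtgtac
COX7B2: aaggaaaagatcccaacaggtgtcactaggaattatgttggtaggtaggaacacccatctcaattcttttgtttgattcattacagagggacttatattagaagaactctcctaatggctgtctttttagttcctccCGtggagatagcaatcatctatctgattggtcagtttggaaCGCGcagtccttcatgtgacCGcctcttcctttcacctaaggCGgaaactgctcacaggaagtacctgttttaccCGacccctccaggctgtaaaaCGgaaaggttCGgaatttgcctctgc
COX7B: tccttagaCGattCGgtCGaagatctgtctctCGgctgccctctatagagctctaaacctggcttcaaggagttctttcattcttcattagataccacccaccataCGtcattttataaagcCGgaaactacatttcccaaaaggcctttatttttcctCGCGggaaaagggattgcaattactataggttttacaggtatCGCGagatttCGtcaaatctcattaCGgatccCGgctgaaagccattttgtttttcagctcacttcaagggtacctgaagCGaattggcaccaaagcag

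The COX8C window holds 10 CpG and the COX8A window 18, while COX7B2 has 8 and COX7B has 14. The median of the 35116 promoter windows in the RefSeq table was 14, and 43.6% of them held fewer CpG than COX8C and 39.3% fewer than COX7B2. Methylation was not measured in these libraries. COX7A1, the muscle isoform of subunit 7A, and NDUFA4L2 have no entry in the table.

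The promoters of SDHB and SDHD, which encode subunits of complex II, are shown as examples of windows that hold GCATGCGC, a core sequence to which NRF1, a regulator of nuclear mitochondrial genes, is known to bind. Capitals mark these letters on either strand, and in SDHD a copy on each strand overlaps, which gives GCGCATGCGC. SDHC has no entry in the table. SDHB lies on the minus strand (chr1:17053983-17054282) and SDHD on the plus strand (chr11:112086623-112086922).
SDHB: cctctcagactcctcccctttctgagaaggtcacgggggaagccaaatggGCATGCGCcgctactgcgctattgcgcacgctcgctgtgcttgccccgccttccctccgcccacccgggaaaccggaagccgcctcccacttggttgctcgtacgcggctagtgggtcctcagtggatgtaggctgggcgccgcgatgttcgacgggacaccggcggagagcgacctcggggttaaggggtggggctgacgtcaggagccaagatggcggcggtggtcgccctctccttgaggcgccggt
SDHD: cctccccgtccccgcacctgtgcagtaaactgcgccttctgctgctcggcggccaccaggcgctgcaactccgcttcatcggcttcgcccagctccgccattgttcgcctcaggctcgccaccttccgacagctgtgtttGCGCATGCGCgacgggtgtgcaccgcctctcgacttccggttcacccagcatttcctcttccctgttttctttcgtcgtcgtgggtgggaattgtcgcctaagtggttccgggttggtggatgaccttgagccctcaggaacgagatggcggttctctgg

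Of the 93 members, 73 matched the promoter table, and 15 of these (20.5%) held GCATGCGC on either strand in at least 1 window, beside 3.68% of all 27305 genes in the table, expressed or not. The 15 include the divergent transcript NDUFA6-DT, whose window overlaps that of NDUFA6, also among them. The 73 include further transcripts that are not subunit genes. CCGGAAG, a core sequence bound by ETS factors such as GABPA, stood in 21 members (28.8%) and in 12.2% of all genes, and it was searched on both strands too. Genes that fell in DAC-resistant cells held the letters GCATGCGC as well, among them NDUFA8 and ATP5MC2. A match describes the letters and not binding. SDHA held neither sequence in its window.

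In levels, the chain was well expressed in all groups. The highest mean over the 8 libraries was 211 FPKM in complex V (ATP5F1B) and 179 FPKM in complex III (UQCRH), and 78 of 83 tested members had more than 300 reads in every library. The median of a complex's members lay between 11.7 FPKM in complex I and 38.25 FPKM in complex IV, as means over the 8 libraries. FPKM divides by all annotated exons of a gene, 421 to 19359 bases for these members, so a gene with a long annotated model is listed low. The difference between the replicates of a group had a median of 0.08 on the log2 scale in parental cells in DMSO and of 0.05 in DAC-resistant cells in DMSO.

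The summed FPKM of complex II was 78.1 ± 3.52 (SD, n = 2) in parental cells in DMSO, 87.9 ± 3.91 with DAC, 113.5 ± 1.89 in DAC-resistant cells in DMSO and 107.6 ± 0.45 with DAC. Complex IV gave 565 ± 28.4, 572 ± 15.7, 699.5 ± 0.03 and 683 ± 32.9 FPKM in the same order. In both complexes all 4 DAC-resistant libraries were above all 4 parental ones. Complex III was lowest in parental cells with DAC, at 373 ± 10.5 FPKM against 419 ± 14.2 with DMSO, and complex I was highest there, at 886 ± 17.2 against 778 ± 20.3. Complex V lay between 750 and 782 FPKM in all groups. These sums are a description and were not tested.

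**Figure D1:**
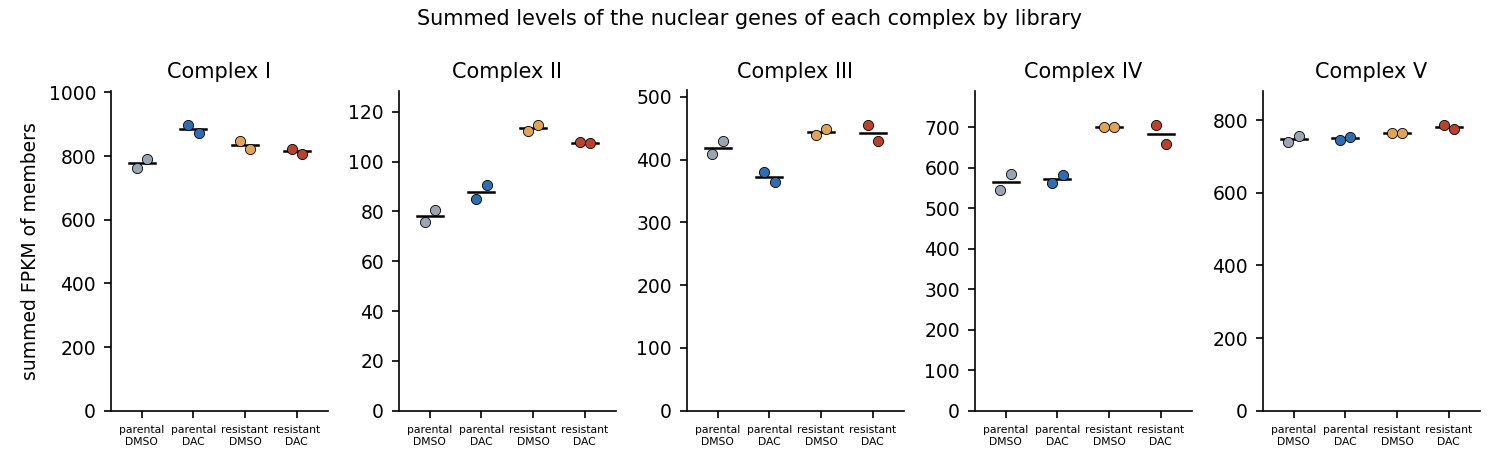
Summed FPKM of the nuclear members of each complex (vertical axes, starting at 0) in the 4 groups, with a point for each library and a bar at the group mean. In complexes II and IV the 4 DAC-resistant libraries lie above the 4 parental ones, and in complex III the parental libraries with DAC lie lowest.

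The first comparison asked what DAC did to these genes in parental cells. By limma, 34 of the 83 tested members were higher and 17 lower with DAC, or 61.45%, beside 57.7% of all genes tested (33.6% higher and 24.1% lower). The share is near the background, and the median change was 0.08 on the log2(FPKM + 1) scale against 0.06 over all genes tested. With upper-quartile scaling the split was 24 higher and 26 lower, and with quantile normalization it was 29 and 22. Of the called members, 24 rises and 16 falls held under all 3 other scalings tried, which were TPM, quantile normalization and upper-quartile scaling. Without replicate 2 of parental cells in DMSO 10 were lower in place of 17. All 51 called members had groups that did not overlap, as did 66 of the 83 tested, beside 79.4% of all genes tested. The large changes were few, and only 4 members passed p of at most 0.01 with a log2 change of at least 1, a rule that 9.31% of all genes tested passed.

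Those 4 were isoforms of complex IV. COX8C had 1.28 and 1.46 FPKM (22 and 24 reads) in parental cells in DMSO and 10.0 and 9.40 FPKM (149 and 140 reads) with DAC. Both DAC libraries were far above both DMSO libraries, a rise of 2.17 ± 0.05 (SE) on the log2 scale (adjusted p = 4.6e-07 by limma). In reads scaled to the library totals the ratio was 7.09, with a 95% interval of 5.18 to 9.90 from counting error alone.

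COX7B2 had 2 and 0 reads in parental cells in DMSO and 78 and 95 with DAC, or 3.47 and 4.23 FPKM. The gene was at the limit of detection without DAC and the groups did not overlap. Its log2 change was 2.22 ± 0.16 (adjusted p = 5.1e-05 by limma), and the ratio of scaled reads was 97.6 with a 95% counting interval of 26.6 to 812. COX7A1 had 2 and 3 reads with DMSO and 66 and 98 with DAC, or 4.10 and 6.09 FPKM. Its log2 change was 2.40 ± 0.17 (adjusted p = 4.4e-05 by limma) and the ratio of scaled reads 37.0, with a 95% interval of 15.5 to 115.5. COX7A1 passed the filter of 1 FPKM only through the parental libraries with DAC, so its p-value is not independent support for the rise. On the log2(FPKM + 1) scale the changes of such low genes are understated.

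NDUFA4L2, a relative of NDUFA4 known as a target of the hypoxia response, went the other way. It had 6.74 and 5.78 FPKM in parental cells in DMSO and 1.05 and 1.41 FPKM with DAC, so that both DAC libraries were below both DMSO libraries. The fall was −1.70 ± 0.11 (adjusted p = 2.5e-05 by limma), and DMSO libraries had 5.09 times the scaled reads of DAC libraries (95% counting interval 4.36 to 5.97).

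**Figure D2:**
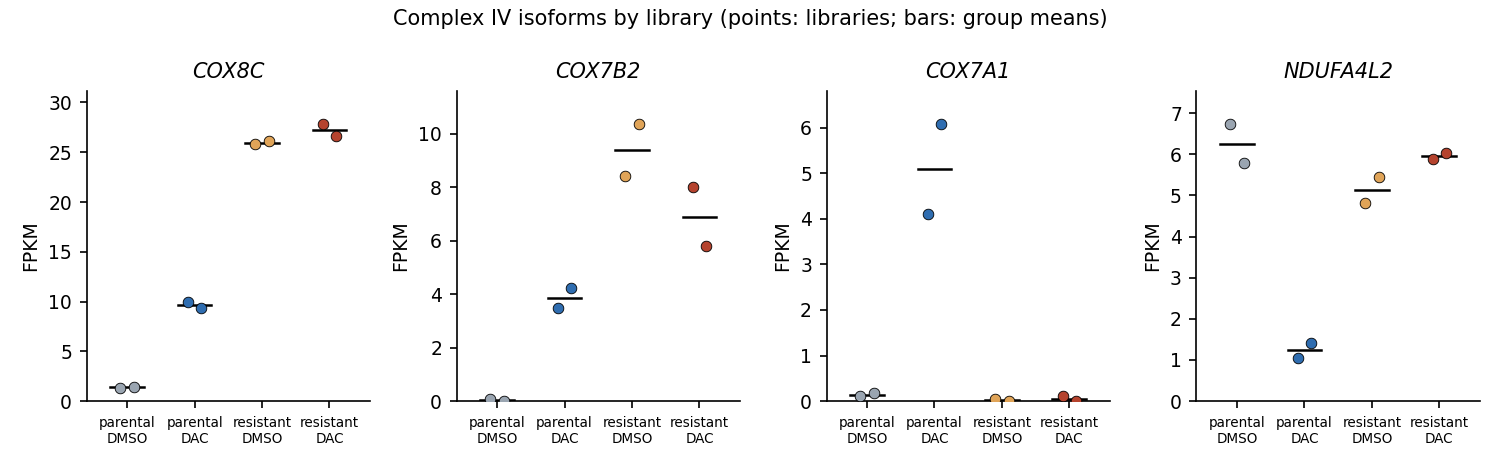
FPKM (vertical axes, starting at 0) of COX8C, COX7B2, COX7A1 and NDUFA4L2 in the 4 groups, with a point for each library and a bar at the group mean. COX8C and COX7B2 rise with DAC in parental cells and are highest in DAC-resistant cells, COX7A1 is above 1 FPKM only in parental cells with DAC, and NDUFA4L2 is lowest there.

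Beyond these isoforms, the subunits of each complex moved in both directions, except in complex II. In complex I, 14 of 28 tested accessory subunits were higher and 2 lower (10 and 5 with upper-quartile scaling, and 8 and 1 without replicate 1 of parental cells in DMSO or without replicate 2 of those with DAC). Leaving out any single library left 0 or 1 of them lower, with 0 without replicate 2 in DMSO. Of the 7 core subunits 2 were higher and 3 lower, which held under all scalings, with 1 higher without replicate 1 in DMSO or without replicate 2 with DAC. The largest rises were in accessory subunits of the membrane arm. NDUFB7 had 29.7 and 35.6 FPKM with DMSO and 63.4 and 59.8 with DAC, a rise of 0.90 ± 0.10 (adjusted p = 0.00031 by limma). NDUFB9 went from 4.61 and 4.89 FPKM to 8.31 and 8.07, a rise of 0.68 ± 0.05 (adjusted p = 3.9e-05). For both genes every DAC library was above every DMSO library.

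Among the core subunits of complex I, NDUFS1, an iron-sulfur protein that carries electrons towards the ubiquinone site, fell. It had 13.4 and 13.3 FPKM with DMSO and 11.2 and 11.0 with DAC. Both DAC libraries were below both DMSO libraries, with a change of −0.24 ± 0.04 (adjusted p = 0.0012 by limma), and the iron-sulfur protein NDUFS8 changed by −0.27 ± 0.07. NDUFS3 and the iron-sulfur protein NDUFV2 rose by 0.30 ± 0.07 and 0.32 ± 0.07. NDUFV1, the subunit that binds NADH, and NDUFS7 were not called.

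In complex II the catalytic subunits rose and the membrane anchors were not called. SDHB, the iron-sulfur subunit, had 21.5 and 23.6 FPKM with DMSO and 29.96 and 31.9 with DAC, a rise of 0.44 ± 0.05 (adjusted p = 0.00047 by limma). SDHA, the flavoprotein that oxidises succinate, rose by 0.32 ± 0.05 (adjusted p = 0.0017). SDHC had 25.6 and 27.2 FPKM with DMSO and 25.9 and 28.5 with DAC, and its groups overlapped. None of the 4 genes was lower by limma, at an unadjusted p under 0.05 there were 0 too, and by voom 0, while 1 was lower with upper-quartile scaling.

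In complex III, 4 of 10 genes were higher and 4 lower, with 2 lower without replicate 2 in DMSO or without either DAC library. UQCRH, the hinge protein that helps cytochrome c1 meet cytochrome c, was among the most abundant members and had 185 and 196 FPKM with DMSO and 131 and 126 with DAC. Both DAC libraries were below both DMSO libraries, and the change was −0.56 ± 0.05 (adjusted p = 8.2e-05 by limma). UQCRHL, an intronless copy of UQCRH that may share its reads, changed by −0.54 ± 0.16 (adjusted p = 0.028). UQCRB, a small subunit near the ubiquinone site, changed by −0.43 ± 0.07 and the core protein UQCRC2 by −0.17 ± 0.05. The Rieske iron-sulfur protein UQCRFS1 rose by 0.26 ± 0.05, and UQCR11 and UQCR10, both small subunits, rose by 0.48 ± 0.07 and 0.45 ± 0.08. UQCRC1 and CYC1 (cytochrome c1) were not called.

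In complex IV, COX7A2L, a relative of subunit 7A that links complexes III and IV in supercomplexes, had 19.9 and 21.0 FPKM with DMSO and 11.98 and 13.3 with DAC. The groups were well apart, and the change was −0.65 ± 0.05 (adjusted p = 8.7e-05 by limma). COX4I1, the ubiquitous form of subunit 4, changed by −0.26 ± 0.03 and COX7C by −0.44 ± 0.06. COX5B and COX5A rose by 0.44 ± 0.08 and 0.24 ± 0.05, the latter not under all scalings, and COX6C was not called.

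In complex V, 6 of 18 tested genes were higher and 4 lower (3 and 7 with upper-quartile scaling, 3 and 2 without replicate 1 in DMSO, and 4 and 2 without replicate 2). ATP5IF1, the inhibitor of ATP hydrolysis by the enzyme, had 26.2 and 25.4 FPKM with DMSO and 35.7 and 34.1 with DAC, a rise of 0.42 ± 0.05 (adjusted p = 0.0003 by limma). Of the 3 genes that encode the same mature c subunit of the membrane ring, ATP5MC1 rose by 0.44 ± 0.07, ATP5MC2 changed by −0.45 ± 0.05 and ATP5MC3 was not called. In levels ATP5MC2 had 28.1 and 30.2 FPKM with DMSO and 21.4 and 20.6 with DAC, with no overlap. Of the catalytic head, ATP5F1C (gamma) changed by −0.14 ± 0.05, which was lost under other scalings, and ATP5F1A (alpha), ATP5F1B (beta), ATP5F1D (delta) and ATP5F1E (epsilon) were not called.

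**Figure D3:**
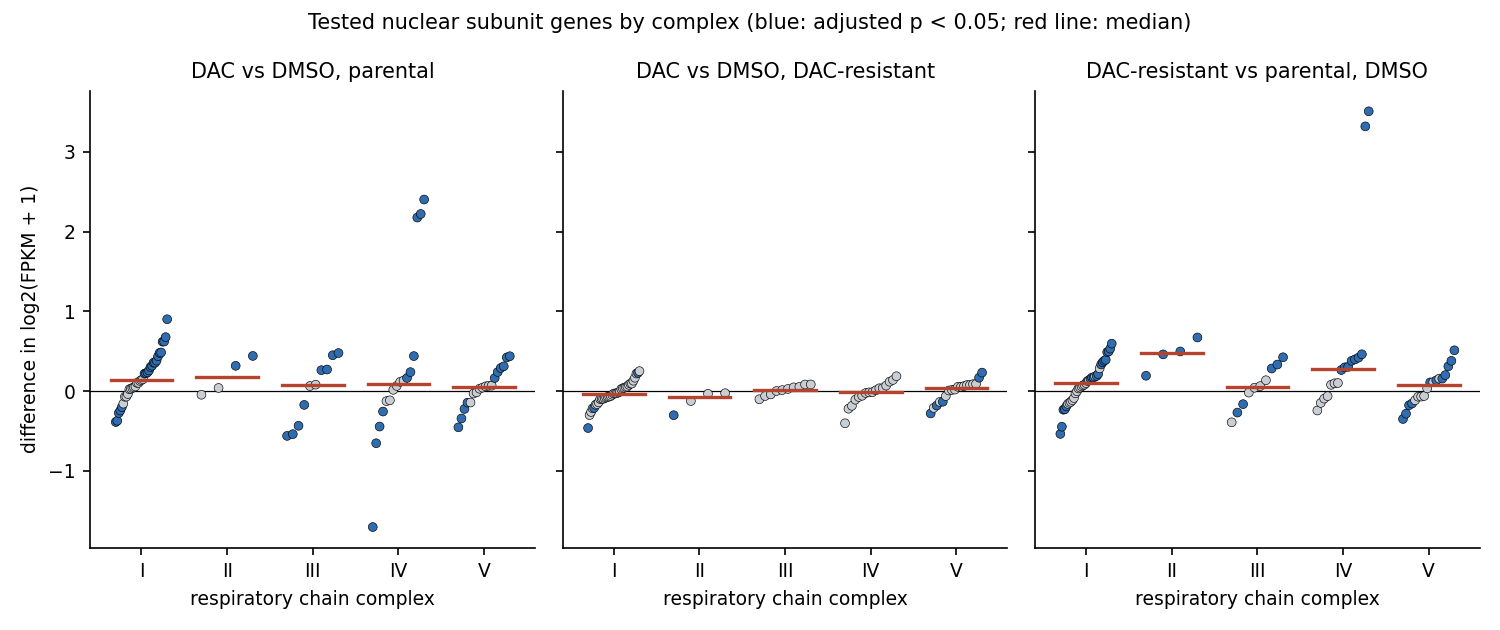
Difference in log2(FPKM + 1) of each tested member (points, ordered within a complex) for DAC against DMSO in parental cells, DAC against DMSO in DAC-resistant cells, and DAC-resistant against parental cells in DMSO, with blue for an adjusted p under 0.05 and a red line at the median of the complex. The points of complex II all lie above 0 in the third comparison, and in DAC-resistant cells all points lie within 0.5 of 0.

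The next comparison asked how DAC-resistant cells differed from parental cells before DAC was added, both in DMSO. This comparison and the one above share the parental DMSO libraries. By limma, 37 of 83 members were higher and 11 lower in DAC-resistant cells, or 57.83%, beside 57.5% of all genes tested. The share called was near the background, with 44.58% higher beside 31.3% and 13.25% lower beside 26.2%, and the median change was 0.11 beside 0.02 over all genes tested. Mitochondrial ribosomal protein genes leaned the same way, with 37 of 76 higher (48.68%), 7 lower (9.21%) and a median change of 0.23. The split of the respiratory chain members was 26 higher and 18 lower with upper-quartile scaling and also with quantile normalization, and 43 and 7 in TPM. Without replicate 2 of parental cells 6 were lower, and without replicate 1 of DAC-resistant cells 7. By the stricter rule, with p of at most 0.01 and a log2 change of at least 1, COX8C and COX7B2 passed, beside 8.73% of all genes. All 48 called members had groups that did not overlap, as did 67 of the 83 tested, beside 78.6% of all genes tested. Of the called members, 23 rises and 7 falls held under all 3 other scalings. NDUFB4 and ATP5MF, called higher, had a slight negative change under 1 of these scalings. Of the 14 tested members whose promoter windows hold GCATGCGC, 9 were higher and 4 lower. With DAC, 6 of them were higher and 2 lower in parental cells, and 2 and 0 in DAC-resistant cells. For the difference between these DAC effects the counts were 3 and 3. The share called among all genes that hold these letters was not computed.

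All 4 subunits of complex II were higher in DAC-resistant cells. SDHB had 21.5 and 23.6 FPKM in parental and 36.9 and 36.04 in DAC-resistant cells, a rise of 0.67 ± 0.05 (adjusted p = 6.9e-05 by limma). The membrane anchor SDHC had 25.6 and 27.2 FPKM in parental and 36.8 and 38.6 in DAC-resistant cells, a rise of 0.50 ± 0.06 (adjusted p = 0.00048). The other anchor, SDHD, had 23.3 and 24.7 FPKM in parental and 32.6 and 34.1 in DAC-resistant cells, a rise of 0.46 ± 0.06 (adjusted p = 0.0005).
In all 3 genes both DAC-resistant libraries were above both parental libraries. SDHA rose by 0.19 ± 0.05 (adjusted p = 0.015), from 5.19 and 5.10 to 5.96 and 6.08 FPKM, and this call was lost with upper-quartile scaling. About 21.7% of the annotated exon length of SDHA and 11.4% of that of SDHD also lies in other genes.

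**Figure D4:**
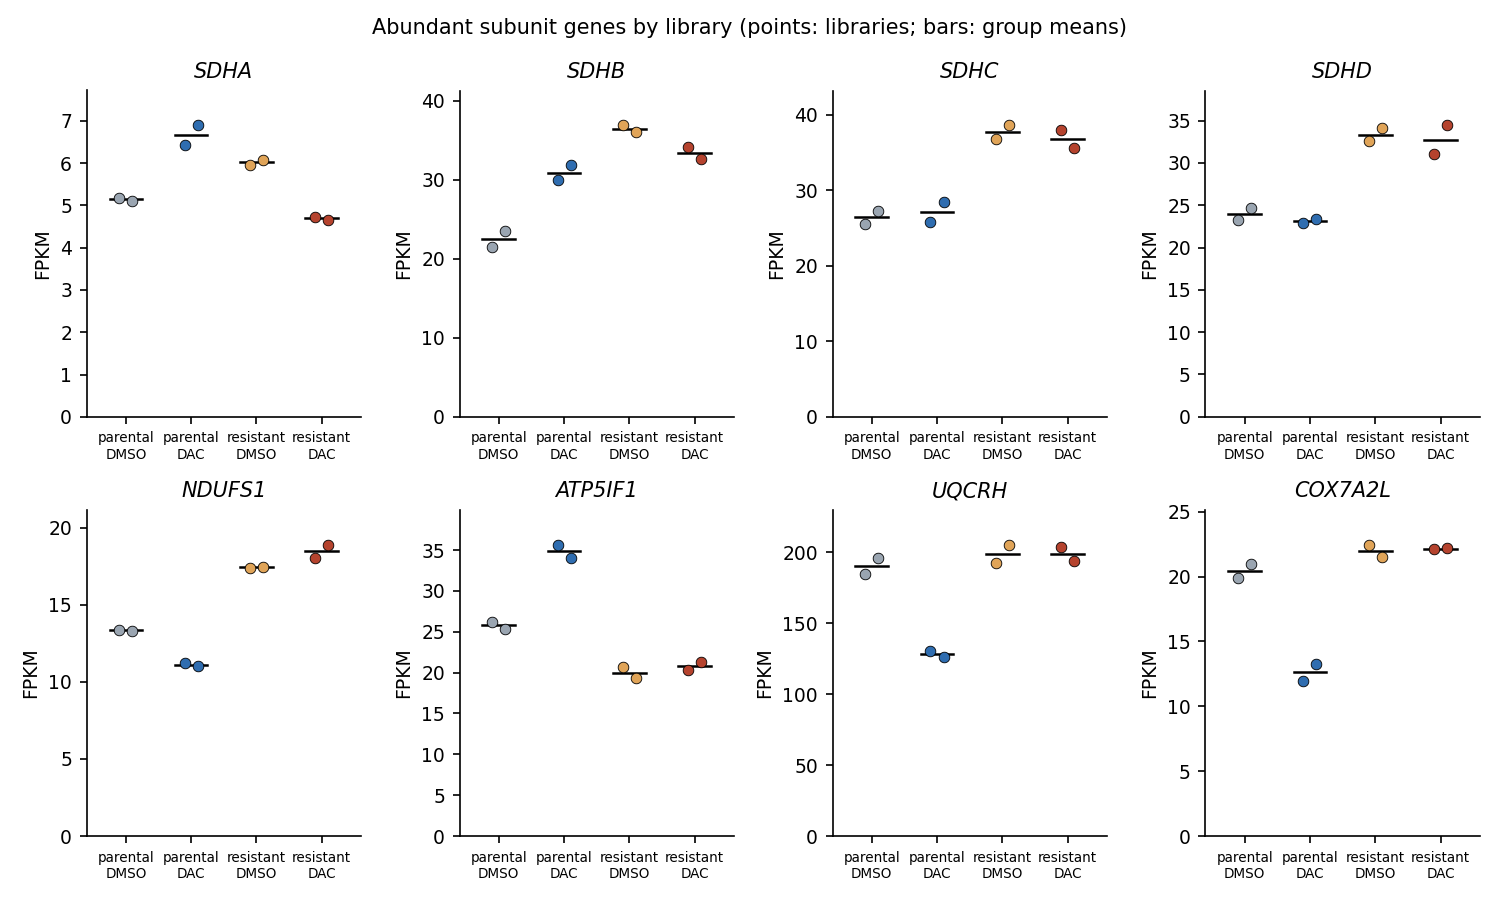
FPKM (vertical axes, starting at 0) of the 4 complex II genes, NDUFS1, ATP5IF1, UQCRH and COX7A2L in the 4 groups, with a point for each library and a bar at the group mean. SDHB, SDHC, SDHD and NDUFS1 are higher in all DAC-resistant libraries than in all parental ones, ATP5IF1 is highest in parental cells with DAC, and UQCRH and COX7A2L are low only there.

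In complex IV, 9 of 16 tested genes were higher in DAC-resistant cells and 0 lower by limma, with 0 lower at an unadjusted p under 0.05, but 1 was lower by voom, 3 with upper-quartile scaling and 2 with quantile normalization. COX8C had 25.8 and 26.1 FPKM (441 and 425 reads) in DAC-resistant cells beside 1.28 and 1.46 FPKM in parental cells, a rise of 3.51 ± 0.05 (adjusted p = 1.4e-07). Its ratio of scaled reads was 18.95, with a 95% counting interval of 14.1 to 26.1. COX7B2 had 217 and 255 reads beside 2 and 0, or 8.42 and 10.4 FPKM, a rise of 3.32 ± 0.16 (adjusted p = 9.6e-06) and a ratio of scaled reads of 238 with an interval of 65.4 to 1967. COX7A1 had 1 and 0 reads in DAC-resistant cells in DMSO, so that no difference from the 2 and 3 reads of parental cells was detectable at this depth.

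Of the ubiquitous subunits of complex IV some rose, by less than COX8C and COX7B2. COX8A had 88.4 and 97.2 FPKM in parental and 122 and 134 in DAC-resistant cells, a rise of 0.46 ± 0.07 (adjusted p = 0.0018 by limma), although 35.4% of its exon length is shared with another gene. COX5A, which had 61.0 and 67.7 FPKM in parental and 87.9 and 84.7 in DAC-resistant cells, rose by 0.42 ± 0.05 (adjusted p = 0.00063), and COX5B rose by 0.38 ± 0.08. NDUFA4, first described in complex I and now placed in complex IV, rose by 0.40 ± 0.04, from 17.3 and 16.9 to 22.2 and 23.6 FPKM. COX7B, COX6A1 and COX7A2 rose by 0.30 ± 0.06, 0.30 ± 0.07 and 0.26 ± 0.05, the last 2 not under all scalings. COX4I1 and COX6C were not called.

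In complex I, 4 of 7 core subunits were higher and 0 lower by limma, with 0 lower at an unadjusted p under 0.05 and 1 lower by voom and under 2 of the scalings. NDUFS1 rose by 0.36 ± 0.04 (adjusted p = 0.00019), from 13.4 and 13.3 to 17.4 and 17.4 FPKM. The rises of NDUFS7 and NDUFV1 were 0.39 ± 0.10 and 0.17 ± 0.03, of which the second was lost under other scalings, and 51% of the exon length of NDUFS7 is shared with other genes. NDUFS3, NDUFS8 and NDUFV2 were not called.

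Of the 28 tested accessory subunits of complex I, 10 were higher and 5 lower, and with upper-quartile scaling 4 were higher and 6 lower. Without replicate 1 of parental cells 5 were higher and 5 lower, without replicate 1 of DAC-resistant cells 5 and 3, and without replicate 2 of parental cells 10 and 3. NDUFS5 rose by 0.53 ± 0.04 (adjusted p = 5.1e-05 by limma), from 94.4 and 91.8 FPKM to 138 and 132. NDUFA8 fell from 38.1 and 38.3 to 26.7 and 25.4 FPKM, a change of −0.54 ± 0.05 (adjusted p = 0.00016). NDUFB2 changed by −0.45 ± 0.08 (adjusted p = 0.0034), from 3.73 and 3.52 to 2.47 and 2.32 FPKM. Neither group of any of these 3 genes overlapped the other.

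Complexes III and V were mixed in DAC-resistant cells, with 3 of 10 higher and 2 lower in the first and 7 of 18 and 4 in the second. Without replicate 2 of either line none of complex III was lower, without replicate 1 of DAC-resistant cells 1 was, and without replicate 1 of parental or replicate 2 of DAC-resistant cells 4 of complex V were higher. In complex III, UQCRC1, a core protein, rose by 0.28 ± 0.03, UQCR10 by 0.42 ± 0.08 and UQCR11 by 0.33 ± 0.07, while UQCRB changed by −0.27 ± 0.07 and UQCRFS1 by −0.16 ± 0.05, the last not under all scalings. UQCRH, with 185 and 196 FPKM in parental and 192 and 205 in DAC-resistant cells, was not called and its groups overlapped, and neither UQCRC2 nor CYC1 was called. In complex V, ATP5F1D (delta) rose by 0.51 ± 0.05 (adjusted p = 0.00024 by limma), from 14.8 and 14.1 to 21.5 and 20.6 FPKM. ATP5F1B (beta) rose by 0.13 ± 0.02 and ATP5F1C changed by −0.18 ± 0.05, and both calls were lost under another scaling. The inhibitor ATP5IF1 changed by −0.35 ± 0.05 (adjusted p = 0.00072), from 26.2 and 25.4 to 20.7 and 19.4 FPKM. ATP5MC1 and ATP5MC3 rose by 0.38 ± 0.07 and 0.20 ± 0.03 and ATP5MC2 changed by −0.28 ± 0.05.

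The third comparison asked what DAC did in DAC-resistant cells. By limma 3 members were higher and 6 lower, or 10.84%, beside 11.2% of all genes tested (5.88% higher and 5.35% lower), which is near the background. The median change was −0.02 beside 0.01, and 21 members had an unadjusted p under 0.05. NDUFB6, an accessory subunit of the membrane arm, changed most, from 15.3 and 14.3 FPKM to 11.1 and 9.82, or −0.46 ± 0.07 (adjusted p = 0.013). SDHA changed by −0.30 ± 0.05 (adjusted p = 0.015), from 5.96 and 6.08 to 4.73 and 4.65 FPKM. ATP5MC1 changed by −0.28 ± 0.07, NDUFB3 by −0.21 ± 0.03, ATP5MF by −0.18 ± 0.03 and ATP5MC3 by −0.13 ± 0.03. ATP5F1C and NDUFA6 both rose by 0.23, with SE of 0.05 and 0.03, and ATP5MPL by 0.17 ± 0.04.

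Leaving out a single library took these counts down to between 0 and 2 higher and between 0 and 5 lower, and none of the 9 calls held under all scalings and all such omissions. Without replicate 2 of the DAC-treated resistant cells 0 were higher and 0 lower, without replicate 1 of them 0 and 1, without replicate 1 of the resistant cells in DMSO 1 and 1, and without replicate 2 of these 0 and 2. None of complexes III and IV was called in DAC-resistant cells by limma. In complex III none had an unadjusted p under 0.05 and none was called by voom, and in complex IV 4 had such a p and voom called 2 lower. COX8C had 27.9 and 26.6 FPKM with DAC beside 25.8 and 26.1 with DMSO, COX7B2 8.02 and 5.80 beside 8.42 and 10.4, and COX7A1 0.11 and 0 beside 0.05 and 0. NDUFA4L2 had 5.90 and 6.04 FPKM with DAC beside 4.81 and 5.45. The groups of COX8C, COX7B2 and NDUFA4L2 did not overlap, but none of these differences passed the test.

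The DAC effects of the cell lines were then compared with each other, as the effect in DAC-resistant cells minus that in parental cells. By limma, 17 members had a higher and 31 a lower effect in DAC-resistant cells, or 57.83%, beside 49.3% of all genes tested (20.9% higher and 28.4% lower). The median difference was −0.14 beside −0.05 over all genes tested, and the split was 21 and 21 with upper-quartile scaling. The largest negative differences were those of COX7B2, −2.62 ± 0.23 (adjusted p = 0.00018), COX7A1, −2.37 ± 0.24 (adjusted p = 0.00033), and COX8C, −2.11 ± 0.07 (adjusted p = 4.2e-06). Since COX7A1 entered the test only through the parental libraries with DAC, its p-value is not independent support here either. NDUFB7 followed with −1.20 ± 0.14, since it rose in parental cells and had 33.2 and 33.4 FPKM with DAC beside 44.5 and 38.2 with DMSO in DAC-resistant cells. NDUFB6 had −0.94 ± 0.10, with a rise in parental cells and a fall in DAC-resistant cells, both called.

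The largest positive differences among called members belonged to those called lower with DAC in parental cells and not called in DAC-resistant cells. They were NDUFA4L2 with 1.89 ± 0.15 (adjusted p = 0.00012 by limma), COX7A2L with 0.66 ± 0.08, UQCRH with 0.56 ± 0.06, UQCRB with 0.52 ± 0.10 and ATP5PB, the b subunit of the ATP synthase stalk, with 0.42 ± 0.04. COX7A2L, for example, had 22.5 and 21.5 FPKM with DMSO and 22.1 and 22.2 with DAC in DAC-resistant cells. SDHA and SDHB had differences of −0.62 ± 0.07 and −0.56 ± 0.07, and SDHC and SDHD were not called.

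**Figure D5:**
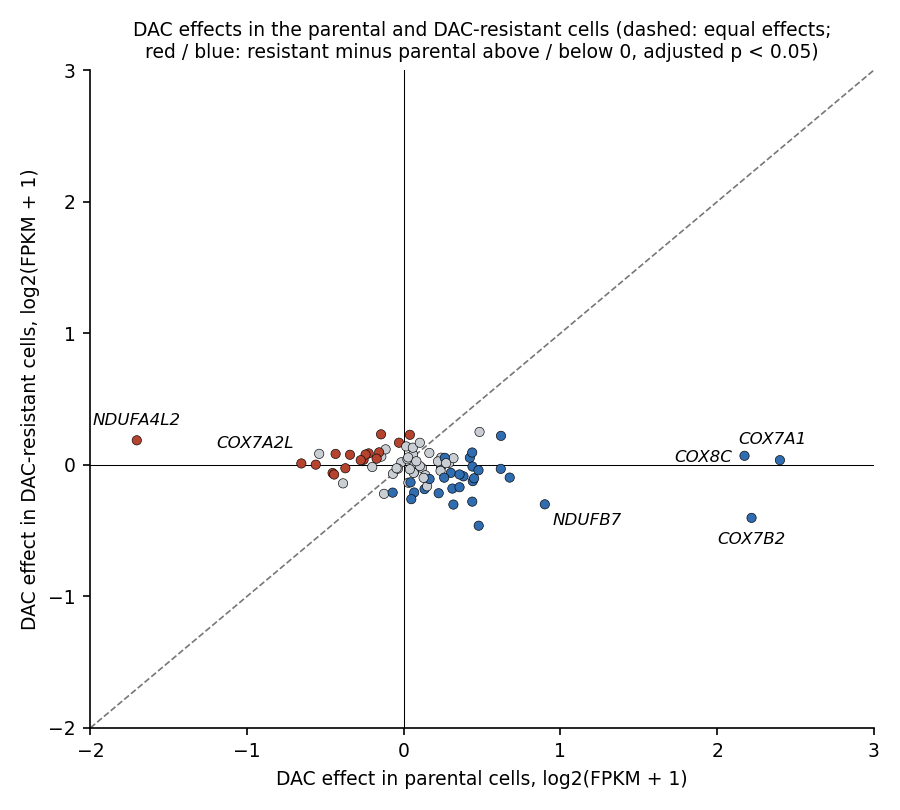
DAC effect of each tested member in parental cells (horizontal axis) and in DAC-resistant cells (vertical axis), both as a difference in log2(FPKM + 1), with the dashed line at equal effects and colours for a difference between the effects at an adjusted p under 0.05. The points spread along the horizontal axis from −1.70 (NDUFA4L2) to 2.40 (COX7A1) and stay between −0.46 and 0.25 vertically.

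Set against their ubiquitous counterparts, COX8C and COX7B2 made up a larger share of their pair in the other 3 groups than in parental cells in DMSO. COX8C made up 1.45% ± 0.04 (SD, n = 2) of the summed FPKM of COX8A and COX8C in parental cells in DMSO, 9.09% ± 0.52 with DAC, 16.9% ± 0.79 in DAC-resistant cells in DMSO and 18.15% ± 0.75 with DAC. COX7B2 made up 0.19% ± 0.27, 14.5% ± 1.08, 26.6% ± 3.16 and 21.2% ± 2.70 of its pair with COX7B in the same order. COX7A1 made up 10.8% ± 2.43 of its pair with COX7A2 in parental cells with DAC and at most 0.36% in any library of the other groups. For NDUFA4L2 the share of its pair with NDUFA4 was 26.8% ± 1.77 in parental cells in DMSO and 5.98% ± 1.07 with DAC, and 18.3% ± 0.68 and 22.0% ± 0.52 in DAC-resistant cells. ATP5MC2 made up 43.7% ± 0.61 of the 3 c-subunit genes in parental cells in DMSO and 33.8% ± 1.10, 34.8% ± 0.53 and 36.4% ± 1.16 in the other groups. UQCRHL stayed between 3.25% and 5.45% of its pair with UQCRH in all libraries. These shares are a description and were not tested.

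The members under the filter had little or no signal. COX6A2, the muscle isoform of subunit 6A, was listed at 0 in all libraries, and COX4I2, the second form of subunit 4, had 4 reads in 1 library of parental cells with DAC and 0 in the others. COX6B2, a testis isoform, had 2 to 13 reads, and ATP5MGL, a relative of the g subunit, 0 to 7 reads. NDUFA9, a subunit of the peripheral arm, was listed at 0.38 to 0.60 FPKM, with 123 to 193 reads over a long annotated model. NDUFA6-DT, NDUFB2-AS1, NDUFV2-AS1, ATP5MF-PTCD1 and NDUFC2-KCTD14, which matched the symbols but are not subunit genes, were all under 1 FPKM.

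Among genes that work with the chain, those that carry its electrons or build it were described from hand-written lists by their counts. With DAC in parental cells the lists stand beside 33.6% of all genes called higher and 24.1% called lower, and for DAC-resistant against parental cells beside 31.3% and 26.2%. Of 12 tested genes of electron carriers, their synthesis and the acyl carrier protein NDUFAB1, 7 were higher and 2 lower with DAC in parental cells, and 5 were higher and 0 lower in DAC-resistant than in parental cells by limma, with 0 lower at an unadjusted p under 0.05, 1 by voom and 2 with upper-quartile scaling. Without replicate 2 of parental cells with DAC 4 were higher with DAC, and without either of these DAC libraries 1 was lower in DAC-resistant cells. CYCS, cytochrome c, had 20.3 and 21.9 FPKM in parental and 42.1 and 43.2 in DAC-resistant cells, a rise of 0.98 ± 0.05 (adjusted p = 8.1e-06), and it rose by 0.41 ± 0.05 with DAC in parental cells. COQ3, a methyltransferase of ubiquinone synthesis, rose by 1.29 ± 0.16 in DAC-resistant cells, from 2.70 and 1.91 to 7.81 and 6.27 FPKM.

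Of the assembly factors of complex IV, 10 of 25 tested were higher in DAC-resistant cells and 0 lower by limma, with 0 lower at an unadjusted p under 0.05, 2 by voom and 4 with upper-quartile scaling. Without replicate 1 of parental cells 8 were higher and 3 lower, and without replicate 1 of DAC-resistant cells 7 and 1. COA7, which belongs to them, rose by 0.95 ± 0.04 (adjusted p = 4.9e-06), from 12.8 and 12.5 to 24.6 and 26.2 FPKM. For complex III 5 of 9 were higher and 0 lower, with 0 lower at an unadjusted p under 0.05 and by voom, and 3 were higher without replicate 1 of parental or replicate 2 of DAC-resistant cells. For complex I 7 of 17 were higher and 2 lower, with 0 lower without replicate 2 of parental cells and 1 without replicate 1 of DAC-resistant cells. For complex II 2 of 4 were higher and 0 lower, with 0 lower at an unadjusted p under 0.05 and by voom, but 1 was higher without replicate 2 of parental cells and 0 without replicate 2 of DAC-resistant cells. For complex V 1 of 6 was higher and 2 lower, with 0 or 1 lower without any single library in DMSO. With DAC in parental cells the counts were mixed, with 5 higher and 4 lower for complex I (3 and 2 without either DAC library) and 8 and 6 for complex IV (5 and 6 without replicate 1 with DAC). LYRM7, a chaperone of the Rieske protein, changed by −0.99 ± 0.04 with DAC (adjusted p = 3.8e-06 by limma), from 13.5 and 13.4 to 6.25 and 6.31 FPKM. It rose by 0.40 ± 0.04 in DAC-resistant cells.

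Of 17 citric acid cycle genes 9 were higher and 0 lower in DAC-resistant cells by limma, with 1 lower at an unadjusted p under 0.05, by voom, with upper-quartile scaling, and without replicate 2 of parental cells. With DAC in parental cells 1 was higher and 7 lower, with 4 lower without either DAC library and 12 with upper-quartile scaling. IDH3B, a subunit of the NAD-dependent isocitrate dehydrogenase, rose by 0.80 ± 0.08. Of 12 tested regulators of mitochondrial biogenesis, 8 were higher and 0 lower, with 0 lower at an unadjusted p under 0.05 and by voom. That count moved, with 2 higher with upper-quartile scaling and 2 without replicate 1 of parental cells in DMSO, 5 without replicate 2 of these or without either DAC-treated resistant library, and 3 and 4 without replicates 1 and 2 of DAC-resistant cells in DMSO. TFAM, which packages mitochondrial DNA, rose by 0.37 ± 0.07, from 9.24 and 10.2 to 12.5 and 13.2 FPKM. NRF1 had 4.87 and 5.02 FPKM in parental and 4.79 and 4.66 in DAC-resistant cells in DMSO.

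The 13 subunits encoded in mitochondrial DNA went the other way between DAC-resistant and parental cells. Of these 9 were lower and 0 higher by limma, with 0 higher at an unadjusted p under 0.05 and by voom, and 12 were lower with upper-quartile scaling and 6 in TPM, but 2 lower and 5 higher with quantile normalization. Leaving out single libraries left between 6 and 11 lower. With DAC in parental cells 6 of the 13 were higher and 2 lower, but 2 and 5 with upper-quartile scaling and 2 and 8 with quantile normalization, and leaving out single libraries gave 2 to 7 higher and 0 to 3 lower. With DAC in DAC-resistant cells 0 were higher and 6 lower by limma, beside 5.35% of all genes called lower there, with 0 higher at an unadjusted p under 0.05 and 1 by voom, which called 11 lower. That count fell to 1 without either of the resistant libraries in DMSO, to 2 without replicate 1 of those with DAC and with quantile normalization, and to 0 without a filter or from only the libraries compared. Their summed level was 70720 and 67750 FPKM in parental and 58120 and 59300 FPKM in DAC-resistant cells in DMSO, and 49980 and 53080 FPKM in DAC-resistant cells with DAC.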

How the data were processed

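RNA-seq was made from 8 libraries, 2 in each of 4 groups. Per the labels and the study's methods, the authors trimmed reads with cutadapt 1.9.1, aligned them to hg38 with HISAT2 2.1.0, used SAMtools 1.6 and counted genes with HTSeq 0.13.5. Whether counting used strand is not given in the sources used here. The authors deposited FPKM values multiplied by 1000, which were divided by 1000 here. Reads were recovered from the steps of these values with GENCODE 44 exon lengths, by which 86.5% to 87.0% of values came out whole (within 0.01 read), and served for read numbers and for the voom alternative only. Intervals from reads cover counting error only.

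Genes that reached 1 FPKM in 2 or more libraries (14899) entered 1 limma fit (limma 3.58.1, R 4.3.3) of log2(FPKM + 1) with a mean for each of 4 groups. Empirical Bayes moderation used an intensity trend and had 2.50 prior and 4 residual degrees of freedom. Tests were two-sided, and a call needed a Benjamini-Hochberg adjusted p under 0.05 over all genes tested. A ± after a log2 change is its SE. The replicates are called biological but separate cultures are not described, so p-values measure only the spread between these samples. In simulated data for DAC in parental cells, 91% of genes changed by 1.5 on the log2 scale, 54% by 0.6 and 6% by 0.3 were called, and 4 unchanged genes of 14899. The simulation changed only a small part of the genes and gave all genes the same spread between replicates. In the real comparison 57.7% of all genes tested were called, which makes the adjusted threshold less strict. The simulated shares therefore do not give the power or the false calls in these data.

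The members and lists were chosen with earlier results of these data known. NDUFA4 and NDUFA4L2 were counted with complex IV. Genes named are the core subunits of each complex, the isoform pairs, the 5 largest rises and falls per comparison among called members whose replicates did not overlap, and members under the filter, of which some values are not reported here. COX7C, UQCR10, UQCR11, NDUFB4, UQCRB and ATP5MF, in comparisons where this rule does not name them, and the genes named from the lists were chosen after their values were seen. Genes with close copies or overlapping genes may share reads. Alternatives were a pseudocount of 0.1, no filter, a mean of at least 5 FPKM, TPM, quantile and upper-quartile scaling, a replicate block, only the libraries compared, each library left out, the study's thresholds (p of at most 0.01 and a log2 change of at least 1), and, added after the data were seen, voom on recovered reads. Promoter windows are from RefSeq on GRCh38.p14.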

Additional observations from a re-analysis of the deposited data

Results flagged for a closer look

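By limma's test of the difference between the DAC effects (DAC-resistant minus parental, log2(FPKM + 1)), 48 members had unlike effects in the cell lines. In 17 of them the difference was positive and in 31 negative. Of all genes tested 49.3% had such a difference, 20.9% higher and 28.4% lower. With upper-quartile scaling the split of the members was 21 and 21. The differences that stood out most were −2.62 for COX7B2, −2.37 for COX7A1, −2.11 for COX8C, −1.20 for NDUFB7 and −0.94 for NDUFB6 on the negative side. On the positive side they were 1.89 for NDUFA4L2, 0.66 for COX7A2L, 0.56 for UQCRH, 0.52 for UQCRB and 0.42 for ATP5PB. With 2 libraries in each group, a single library that stands apart could not be tested for.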

How the results depend on the processing

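Counts of members are given as higher and lower, and medians on the log2 scale. With DAC in parental cells, upper-quartile scaling gave 26 lower and a median of −0.033 (quantile normalization 0.027), the study's thresholds 3 and 1, and leaving out single libraries 23 to 34 and 10 to 16, with medians of 0.062 to 0.11. With DAC in DAC-resistant cells there were 1 and 3 without a filter, 11 lower with a mean of at least 5 FPKM, 11 lower by voom, 1 and 0 from only the libraries compared and 0 and 0 by the study's thresholds. In TPM the median was 0.013, and leaving out single libraries gave 0 to 2 and 0 to 5 with medians of −0.049 to 0.019. Between the cell lines in DMSO there were 6 lower without a filter, 7 lower in TPM (median 0.18), 18 lower with quantile normalization (0.047) and with upper-quartile scaling (0.019), 2 and 0 by the study's thresholds, and 28 to 37 and 6 to 12 without single libraries (0.077 to 0.15). For the difference between the DAC effects the median was −0.090 in TPM and −0.037 with upper-quartile scaling, the study's thresholds gave 1 and 4, and leaving out single libraries gave 12 to 18 and 22 to 30, with medians of −0.19 to −0.082. The causes of these shifts were not tested, except that the study's thresholds ask for a larger change. Quantile normalization moved the median of all genes by −0.11 with DAC in parental cells and by 0.10 for the difference. Of the changes named as the 5 largest rises or falls of a comparison, none reversed its sign in 318 repeats that kept their call and 19 that lost it, nor in 262 and 42 without a library, while the rises of NDUFB4 and ATP5MF between the cell lines turned slightly negative under 1 scaling. The medians of single complexes under other settings moved by more than the replicate spread in 35 cases and by less in 145. Over the genes tested, samples with the same replicate number did not deviate together (correlations of −0.022 to 0.020). A shift common to all genes would not show in these correlations, so whether such samples were handled together cannot be told from them. With the replicate block the counts were 33 and 16 for parental cells given DAC, 2 and 4 for DAC-resistant cells, 35 and 10 between the cell lines, and 15 and 28 for the difference. Low genes such as COX7A1 and COX7B2 rest on few reads, and depth limits what can be said of them.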
